A study of Mus musculus with 12 samples.

Results

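The 40 genes described here encode the classic axon guidance cues and their receptors, in the netrin, slit, semaphorin and ephrin systems, and they were followed in dorsal root ganglia of adult mice after induced loss of Prdm12. They were taken by name from a list of ligands and receptors, which was chosen with earlier results of these data known. All 40 matched an identifier among the 55416 in the count tables. The netrin system has 8 of them, the slit system 6, the semaphorin system 17 and the ephrin system 9. In all, 17 are ligands and 23 are receptors. Of the 38 with enough reads to test, 1 passed the test between iKO and control ganglia, when 0.946% of all genes tested did. It was the netrin receptor gene Unc5b, which was higher in iKO. Leaving out 1 library undid that call in 9 of 12 cases.

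Guidance cues are secreted or membrane-bound proteins that attract or repel a growing axon tip. Netrins attract axons through DCC and neogenin and repel them through the UNC5 receptors, slits repel through the ROBO receptors, semaphorins act through plexins, in part with neuropilins as co-receptors, and ephrins and their EPH receptors signal by contact between cells, in both directions. In the embryo these systems steer the axons of dorsal root ganglion neurons toward skin, muscle and spinal cord. In the adult, members of each system are known for roles in synapse upkeep, blood vessels, glia and the regrowth of injured axons.

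Dorsal root ganglia hold the cell bodies of the sensory neurons of the body, wrapped in satellite glia, and Prdm12 encodes a zinc finger protein that pain-sensing neurons need to form. Poly(A) RNA was sequenced without a record of strand in 12 libraries from adult mice labelled C57Bl6. The 6 iKO libraries (inducible knockout) came from Rosa26Cre ERT2; Fl/Fl mice, which make a Cre that tamoxifen switches on, driven from Rosa26, and have both Prdm12 alleles floxed, taken 1 month after tamoxifen. Rosa26 is active in most cell types, so the Cre was not limited to neurons. The 6 controls differed among themselves. Control 1 was Rosa26Cre ERT2; Fl/+, controls 2 and 3 were +/+; Fl/+ with no Cre, and control 4 was Rosa26Cre ERT2; +/+, and these 4 also received tamoxifen. Controls 5 and 6 had the iKO genotype and received corn oil, the solvent, instead. The libraries iKO 1 to 3 and controls 1 and 2 came from females, and the rest from males. No single control thus matched the iKO mice in both agent and genotype.

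Prdm12 itself checked the labels. It averaged 23.3 ± 2.51 CPM (counts scaled to library size) in iKO and 117 ± 29.4 CPM in control libraries (SD, n = 6 each), a log2 fold change of -2.33 ± 0.18 (SE) with an adjusted p of 8.59e-05 (quasi-likelihood test of edgeR, adjusted by Benjamini-Hochberg over 16384 genes, the test behind every adjusted p given here unless another is named). Control 6 had the lowest control value, 64.6 CPM. Library totals ran from 13943784 to 20377766 counts. The library iKO 1 stood apart from the rest. Its mean correlation with its own group was 0.9746, against 0.9854 to 0.9901 for the other libraries, and it held 24.4% of all lowest and 24.6% of all highest values of the genes tested. The 12 sensory neuron markers summed to 12490 to 18370 CPM in iKO and 13797 to 19326 CPM in control libraries, with iKO 1 lowest in the iKO group, and none of these markers was near 0. The 10 fibroblast markers summed to 7712 CPM in iKO 1, against 2902 to 3265 CPM in the other iKO and 3258 to 4235 CPM in control libraries. Because whole ganglia were sequenced, fewer cells of a type and less RNA per cell cannot be told apart in any value below.

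The adult ganglion contained transcripts of most of these genes, at levels that spanned a wide range. Levels are compared between genes as CPM per kilobase of exon, with all annotated exons of a gene counted in its length. That length can exceed the length of the transcripts present, which lowers the value. It was 25433 bases for Slit2 and 5921 for Slit1, so the order of genes depends on it. On the scale per kilobase 15 of the 40 averaged above 5 in controls and 9 averaged below 1. Plxnd1, the plexin that binds Sema3e directly, was highest at 22.7 ± 2.32, which placed it at the 85.9th percentile of 14483 tested protein-coding genes. Slit1, a secreted repellent, followed at 22.3 ± 2.37, a difference smaller than the spread between control libraries. Sema7a, a membrane-anchored semaphorin that also binds integrins, averaged 18.3 ± 4.09, and Robo2, a slit receptor, averaged 16.6 ± 1.04. These 4 also overlapped in their library ranges with at least 1 neighbour in the order. At the other end stood Sema3a at 0.0243 ± 0.0117, Robo3 at 0.104 ± 0.0256 and Dcc at 0.130 ± 0.0403 CPM per kilobase in controls.

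**Figure D1:**
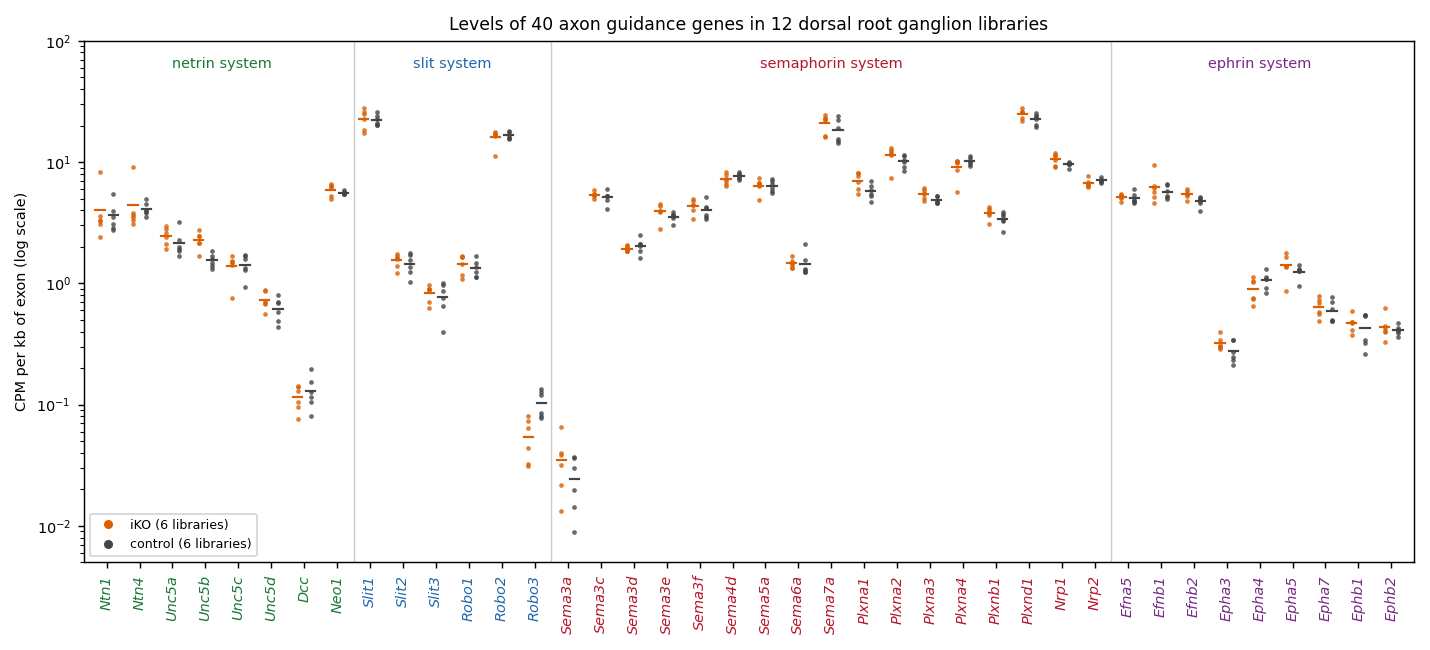
Levels of the 40 guidance genes in CPM per kilobase of exon (log scale), with 1 point per library, iKO left of control for each gene, and a bar at each group mean. Plxnd1, Slit1, Sema7a and Robo2 have the highest control means, and Sema3a, Robo3 and Dcc the lowest.

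The 4 systems differed in where their high genes lay. In the semaphorin system 10 of 17 genes averaged above 5 CPM per kilobase in controls, and all of its 8 receptors but Plxna3 and Plxnb1 were among them. In the slit system Slit1 and Robo2 were high, and Slit2, Slit3, Robo1 and Robo3 were between 0.104 and 1.44. Only Neo1, at 5.57, passed 5 in the netrin system. In the ephrin system the ligands Efnb1 at 5.70 and Efna5 at 5.04 passed it, and 4 of the 6 EPH receptor genes stayed below 1. Control libraries also agreed better for some genes than for others. The coefficient of variation over the 6 controls had a median of 12.6% for the 38 tested genes and 10.3% for all genes tested, and it was lowest for Neo1 at 3.37% and highest for Dcc at 31.1%.

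Between iKO and control libraries the guidance genes moved little. Of the 38 tested, 1 was higher and 0 were lower, against 0.946% of all 16384 genes in either direction (155 genes), 0.537% higher and 0.409% lower. The count was also 1 in DESeq2, against 1.80% of all genes, and with no filter on low counts, against 0.705%. At an unadjusted p under 0.05 there were 4 of them, Unc5b, Efnb2, Plxna3 and Plxna1, and this share lies near the 9.52% of all genes at that level. The log2 fold changes of the 38 ran from -0.25 to 0.57 with a median of 0.11, and 30 were positive, against a median of 0.00 and 50.0% positive over all genes. The median was 0.05 for the 16 tested ligands and 0.13 for the 22 tested receptors. Of the 37 genes that did not pass, 33 had a 95% interval that lay within 1.5-fold in both directions, and all 37 had one within 2-fold. The 4 with wider intervals than 1.5-fold were Ntn1, Unc5d, Dcc and Ephb1. No tested guidance gene had iKO and control values that did not overlap, which 1.54% of all genes had.

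**Figure D2:**
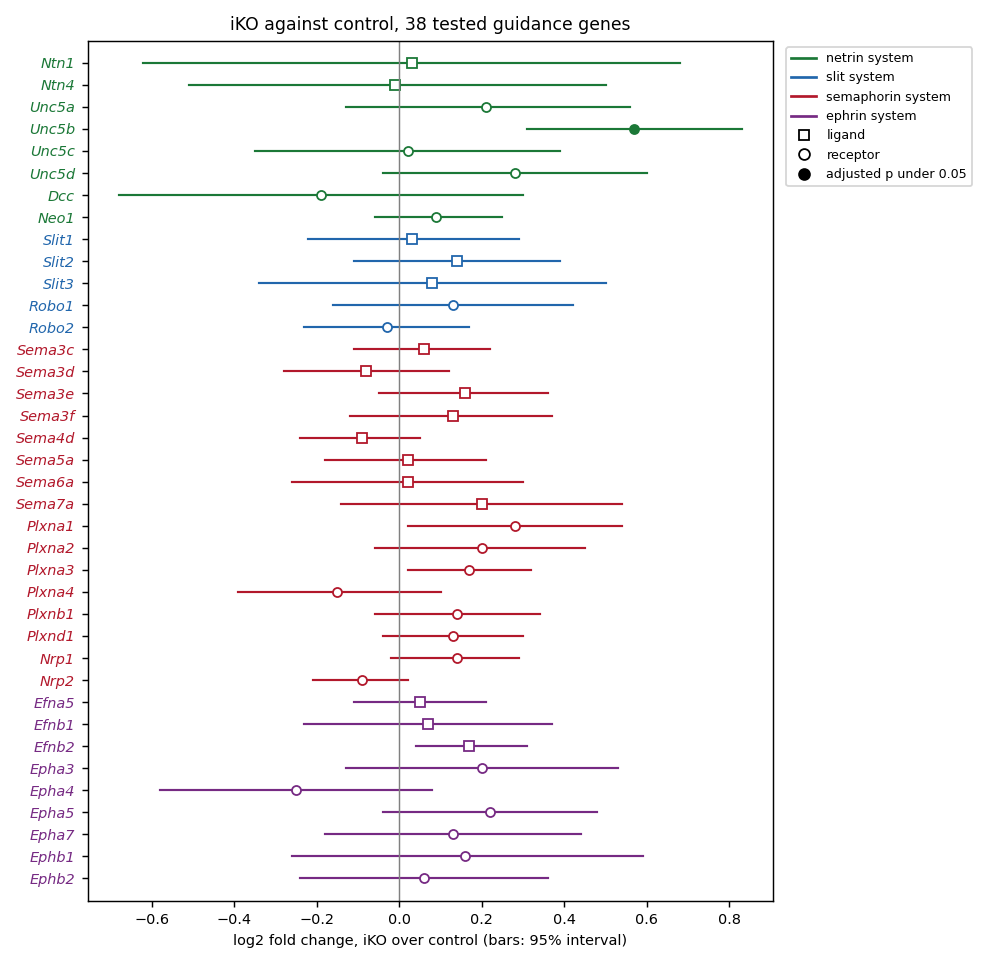
Log2 fold changes of the 38 tested guidance genes, iKO over control, with 95% intervals from edgeR's quasi-likelihood fit; squares are ligands, circles are receptors, and the filled symbol has an adjusted p under 0.05. Unc5b at 0.57 is the only filled symbol, and most of the other intervals include 0.

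Unc5b was the guidance gene that rose. It encodes a netrin receptor that mediates repulsion and is also known from blood vessels, where it restrains branching. Unc5b had 10.5, 14.4 and 17.1 CPM as the lowest, median and highest value in iKO libraries, against 8.17, 9.50 and 11.5 CPM in control libraries. All 6 iKO values lay above the control median. The groups overlapped only through iKO 1 at 10.5 CPM, which lay just under control 1 at 10.6 and control 5 at 11.5. The means were 14.2 ± 2.28 CPM in iKO and 9.67 ± 1.23 CPM in control libraries (SD, n = 6 each), a log2 fold change of 0.57 ± 0.12 (SE, 95% interval 0.31 to 0.83) with an adjusted p of 0.0351, the 127th smallest p of 16384. Without iKO 1 the log2 fold change was 0.63 and the adjusted p 0.00267.

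The call on Unc5b lay close to the threshold while its size did not move much. Leaving out any 1 of the 12 libraries gave a log2 fold change of 0.51 to 0.65, and the adjusted p ran from 0.00267 to 0.117, under 0.05 without iKO 1, control 1 or control 5 and above it without any of the other 9. Within replicates 1 to 4, with tamoxifen-injected controls, the log2 fold change was 0.61 (adjusted p = 0.3), and within replicates 5 and 6, all male and with corn-oil controls, it was 0.51 (adjusted p = 0.327). The 10 endothelial markers summed to 276 CPM in iKO 1 and 126 to 138 CPM in the other 5 iKO libraries, against 151 to 174 CPM in control libraries, so those 5 lay below every control. Of the 10, 2 had a positive log2 fold change and 0 passed the test. The 8 mural cell markers summed to 460 CPM in iKO 1 and 344 to 363 CPM in the other iKO libraries. Their sum in control libraries was 379 to 441 CPM, the same split. Most of the sum was Rgs5, with means of 260 CPM in iKO and 309 CPM in control libraries. Of the 8, however, 6 had a positive log2 fold change, and 0 passed the test. The part of these vessel cells in the Unc5b difference was not tested. The 10 markers of myelinating Schwann cells summed to 4319 to 6221 CPM in iKO and 3723 to 4771 CPM in control libraries. All 10 log2 fold changes were positive, with a median of 0.25 and 0 past the test. Over the tamoxifen-injected controls alone all 10 were positive, with a median of 0.42 and 1 past the test. Over the corn-oil controls alone 6 were positive, with a median of 0.02 and 0 past the test. The part of these cells in the Unc5b difference was not tested.

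The other netrin receptors did not pass. Unc5a and Unc5d, from the same repulsive receptor family, had log2 fold changes of 0.21 ± 0.16 and 0.28 ± 0.15, and Unc5c had 0.02 ± 0.17 (adjusted p = 0.572 to 0.98 over these 3). Neo1 encodes neogenin, which binds netrins and repulsive guidance molecules. It had 42.8, 54.0 and 57.9 CPM as lowest, median and highest in iKO, against 47.4, 47.9 and 51.6 CPM in control libraries, so the iKO range enclosed the control range. Its log2 fold change was 0.09 ± 0.07 with an adjusted p of 0.723. Dcc, the attractive netrin receptor, averaged 1.51 ± 0.358 CPM in iKO and 1.71 ± 0.531 CPM in control libraries.

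Neither netrin gene passed the test. Ntn1 encodes netrin-1, the secreted attractant of commissural axons, and it had 15.1, 20.7 and 52.4 CPM as lowest, median and highest in iKO, against 17.4, 20.8 and 34.5 CPM in control libraries. The medians nearly coincided, and the 2 highest values were single libraries, iKO 1 and control 6. The log2 fold change of Ntn1 was 0.03 ± 0.30 with an adjusted p of 0.985, and it was -0.22 without iKO 1. Ntn4, a netrin of basement membranes, was likewise highest in iKO 1 at 34.1 CPM, against 11.6 to 14.1 CPM in the other 5 iKO and 13.3 to 18.6 CPM in control libraries. Its log2 fold change was -0.01 ± 0.23. In the same library, the marker sums of fibroblasts, endothelium, mural cells, macrophages, satellite glia and myelinating Schwann cells were each the highest of all 12. The macrophage sum, for example, was 404 CPM in iKO 1 and 140 to 165 CPM in the other iKO libraries, against 148 to 234 CPM in control libraries. The part of these cells in the Ntn1 and Ntn4 values was not tested.

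The slit system held 0 genes past the test among 5 tested, with log2 fold changes from -0.03 to 0.14. Slit1 had 103, 141 and 164 CPM as lowest, median and highest in iKO, against 119, 129 and 154 CPM in control libraries. The iKO values reached beyond the controls on both sides, and the log2 fold change was 0.03 ± 0.12 (adjusted p = 0.955). Slit2, the slit best known for midline repulsion and for promoting branching of sensory axons, had 31.1, 41.0 and 44.7 CPM in iKO, against 25.9, 36.9 and 45.4 CPM in control libraries. Both groups covered nearly the same range, with a log2 fold change of 0.14 ± 0.12 (adjusted p = 0.729). Slit3 averaged 5.04 ± 0.812 CPM in iKO and 4.68 ± 1.37 CPM in control libraries.

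Of the slit receptors, Robo1 had 17.9, 25.6 and 27.6 CPM as lowest, median and highest in iKO, against 18.6, 21.5 and 27.5 CPM in control libraries. The upper ends were the same to within 0.1 CPM, and the log2 fold change was 0.13 ± 0.13 (adjusted p = 0.793). Robo2 averaged 271 ± 40.9 CPM in iKO and 282 ± 17.7 CPM in control libraries, and iKO 1 at 190 CPM was the lowest value. Robo3 encodes the divergent receptor that lets commissural axons reach the midline, and with 4 to 14 counts per library it stayed under the filter on low counts. It averaged 0.371 ± 0.146 CPM in iKO and 0.711 ± 0.175 CPM in control libraries. No iKO library reached the control median, while the ranges of 0.214 to 0.553 CPM in iKO and 0.531 to 0.922 CPM in control libraries overlapped slightly. With no filter on low counts the test gave Robo3 an adjusted p of 0.341.

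The semaphorin system had 16 of its 17 genes tested and 0 past the test, with 12 positive log2 fold changes and a median of 0.13. Among the ligands Sema3e, a secreted repellent, had the smallest p. Sema3e had 25.8, 36.8 and 42.1 CPM as lowest, median and highest in iKO, against 28.0, 33.5 and 36.2 CPM in control libraries. The lowest and the highest values were both iKO, with iKO 1 at the bottom, and the log2 fold change was 0.16 ± 0.10 (adjusted p = 0.632). The other 7 tested ligands had log2 fold changes from -0.09 for Sema4d, whose product signals through plexin-B1, to 0.20 for Sema7a. Sema3c, Sema3d and Sema3f, secreted ligands of the neuropilins, had 0.06, -0.08 and 0.13. The transmembrane semaphorins Sema5a and Sema6a had 0.02 each. Sema3a, the collapsing factor of embryonic sensory growth cones, had 2 to 17 counts per library, with the 17 in iKO 1, and was not tested after the filter on low counts.

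Among the semaphorin receptors the A-type plexins did not share a direction. Plxna3 had 37.7, 43.3 and 47.8 CPM as lowest, median and highest in iKO, against 35.9, 37.6 and 41.2 CPM in control libraries. All 6 iKO values were above the control median, and the ranges overlapped. Its log2 fold change was 0.17 ± 0.07 with an adjusted p of 0.433. Plxna1 had a log2 fold change of 0.28 ± 0.12 (adjusted p = 0.47), and a gene model on the opposite strand shares 10.71% of its exon bases, whose reads these libraries cannot tell apart. Plxna2 had 0.20 ± 0.12 and Plxna4 -0.15 ± 0.11, both the receptors of Sema6a, and both were lowest in iKO 1.

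Plxnd1, the highest of the set per length, had 158, 189 and 202 CPM as lowest, median and highest in iKO, against 143, 170 and 186 CPM in control libraries. Of the 6 iKO values 4 lay above every control value, and the log2 fold change of 0.13 ± 0.08 did not pass (adjusted p = 0.625). Plxnb1 had 0.14 ± 0.09. The neuropilin genes stood on opposite sides of 0, with log2 fold changes of 0.14 ± 0.07 for Nrp1, the co-receptor of Sema3a, and -0.09 ± 0.05 for Nrp2, the co-receptor of Sema3f (adjusted p = 0.57 and 0.62).

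The ephrin system had 0 of 9 genes past the test, 8 positive log2 fold changes and a median of 0.13. Efnb2 encodes ephrin-B2, a transmembrane ligand also used as a marker of arteries. It had 32.9, 37.6 and 40.9 CPM as lowest, median and highest in iKO, against 27.2, 33.2 and 35.0 CPM in control libraries. Of the 6 iKO values 5 lay above every control value, and iKO 4 lay among the controls. The log2 fold change of Efnb2 was 0.17 ± 0.06 with an adjusted p of 0.366. Efnb1, the ephrin gene with the highest level per length, had 15.8, 20.4 and 32.4 CPM in iKO, against 17.1, 18.9 and 22.8 CPM in control libraries. Only iKO 1, at 32.4 CPM, left the control range upward, and the log2 fold change was 0.07 ± 0.14 (adjusted p = 0.899). Efna5, which is held in the membrane by a lipid anchor, had 0.05 ± 0.07.

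Epha5, a receptor of the A-type ephrins, had 14.4, 23.4 and 29.7 CPM as lowest, median and highest in iKO, against 16.0, 21.2 and 23.5 CPM in control libraries. The lowest library of each group was female, iKO 1 and control 1, and the 2 highest were the males iKO 4 and iKO 5. The log2 fold change of Epha5 was 0.22 ± 0.12 with an adjusted p of 0.588. Epha4, which binds ephrins of both classes, had the most negative log2 fold change of the 38, at -0.25 ± 0.16 (adjusted p = 0.635). Epha3, Epha7, Ephb1 and Ephb2 had log2 fold changes of 0.20, 0.13, 0.16 and 0.06, at control means of 2.39 to 5.86 CPM.

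**Figure D3:**
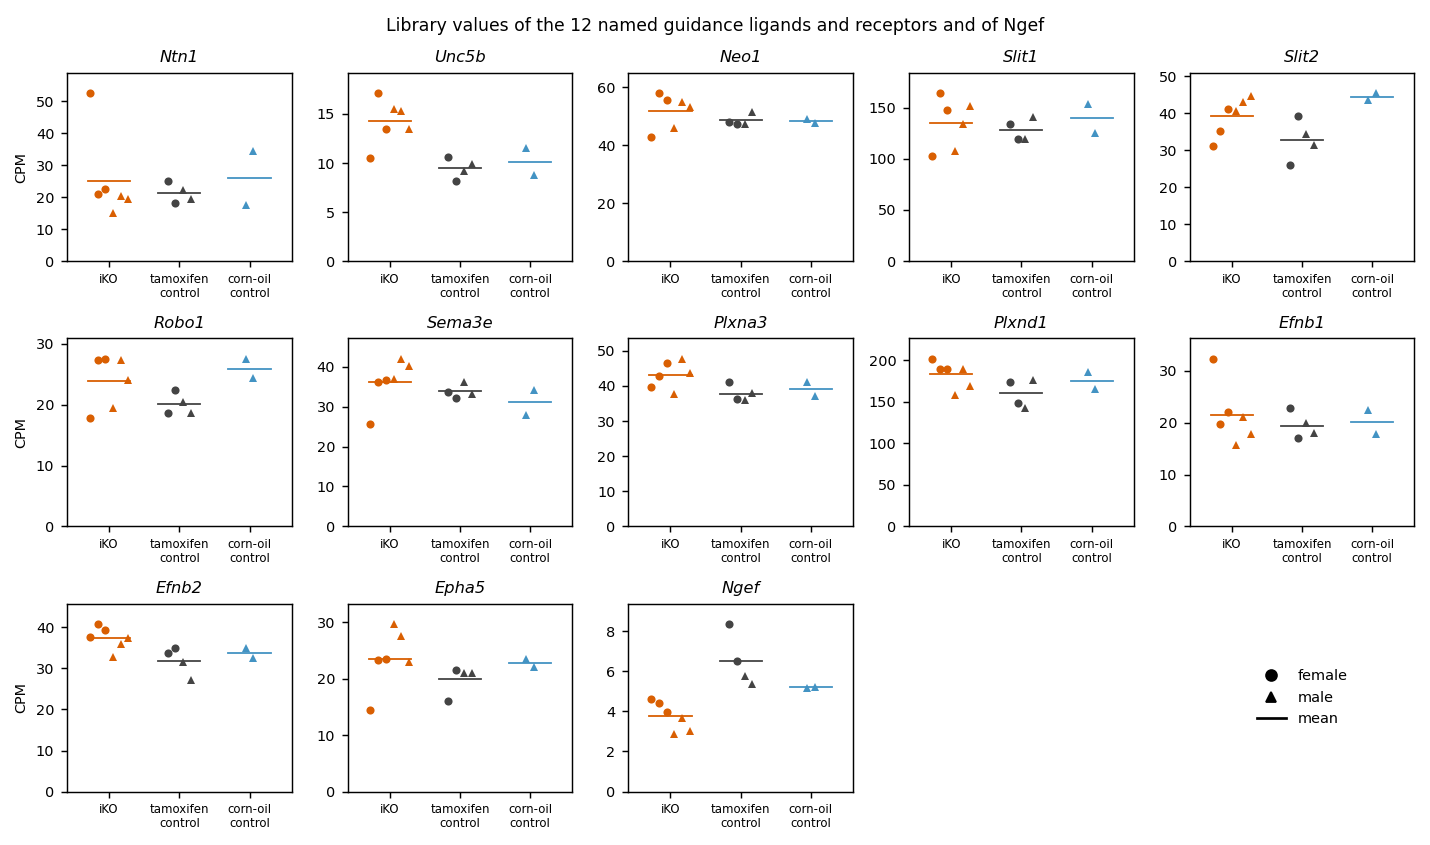
CPM in each library for the 12 guidance genes described with their full ranges and for Ngef, with iKO on the left, then controls given tamoxifen and controls given corn oil, circles for females, triangles for males and a line at each mean. Unc5b lies higher in iKO with iKO 1 as the low point at 10.5 CPM, and Ngef is the panel in which all iKO libraries lie below all controls.

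Beyond these 40, a wider list of 92 guidance genes was read for the same comparison, with further family members, co-receptors and adhesion partners, and effectors inside the cell. Of the 90 tested, 0 were higher and 1 was lower, a share close to the 0.946% of all genes, and the median log2 fold change was 0.04. The gene that fell was Ngef, which encodes ephexin-1, a signalling protein that acts downstream of EPHA receptors. Ngef had 4.60, 4.44, 3.99, 2.86, 3.65 and 3.01 CPM in iKO 1 to 6, against 8.37, 6.52, 5.78, 5.38, 5.16 and 5.24 CPM in controls 1 to 6. Every iKO library was below every control library, and 1.54% of all genes had groups that did not overlap, in either direction. In both groups the females were highest. A gene on the opposite strand, Neu2, shares 3.15% of its exon bases. The means were 3.76 ± 0.719 CPM in iKO and 6.08 ± 1.23 CPM in control libraries (SD, n = 6 each), a log2 fold change of -0.77 ± 0.11 with an adjusted p of 0.00248. It stayed past the threshold when any 1 of the 12 libraries was left out, at -0.82 to -0.70 with adjusted p from 0.00126 to 0.0211. Within replicates 1 to 4 it was -0.83 (adjusted p = 0.0834) and within replicates 5 and 6 -0.64 (adjusted p = 0.384). Over the tamoxifen-injected controls alone Ngef passed (adjusted p = 0.00472), and over the corn-oil controls alone it did not (adjusted p = 0.235). None of the EPHA receptor genes among the 40 passed the test, as given above.

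Where a group of the wider list had no gene past the test, the gene with the smallest p was as follows. In the netrin group it was Dscam, a cell adhesion molecule and netrin receptor, at 0.14 ± 0.11 (adjusted p = 0.719). In the slit group it was Slitrk5, a transmembrane protein with slit-like repeats, at 0.27 ± 0.09 (adjusted p = 0.252). Sema3b in the semaphorin group had 0.30 ± 0.11 (adjusted p = 0.368) and Epha8 in the ephrin group -0.34 ± 0.13 (adjusted p = 0.409). The iKO and control values of Epha8 narrowly did not overlap, with 2.71 to 3.11 CPM in iKO and 3.13 to 4.58 CPM in control libraries. That was so for 1.54% of all genes, and Epha8 did not pass the test. Alcam, an immunoglobulin-type adhesion molecule, led the co-receptors and adhesion partners at 0.18 ± 0.07 (adjusted p = 0.457). Without iKO 1, Slitrk5 at 0.33 and Alcam at 0.24 passed the test as well (adjusted p = 0.0193 and 0.00672), when 2.21% of all genes did.

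The guidance genes were also read against each kind of control separately. The comparisons in the next sentences share the 6 iKO libraries, so they are set side by side and not tested against each other. Against the 4 tamoxifen-injected controls, 0 of 38 passed (1.35% of all genes did), 31 log2 fold changes were positive (50.2% of all genes) and their median was 0.17. At an unadjusted p under 0.05 there were 9, against 17.0% of all genes. Against the 2 corn-oil controls, 0 of 38 passed (0.146% of all genes), 15 were positive (49.9% of all genes) and the median was -0.06, with 4 at an unadjusted p under 0.05, against 5.30% of all genes. Unc5b had nearly the same difference from both, 0.59 ± 0.14 for iKO over the tamoxifen-injected controls (adjusted p = 0.0568) and 0.53 ± 0.19 over the corn-oil controls (adjusted p = 0.702). Plxna1 had 0.40 ± 0.11 over the tamoxifen-injected and 0.01 ± 0.15 over the corn-oil controls, and Sema7a had 0.38 ± 0.14 over the tamoxifen-injected and -0.16 ± 0.18 over the corn-oil controls. Unc5d had the smallest p against corn-oil controls, at 0.63 ± 0.20 (adjusted p = 0.618).

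**Figure D4:**
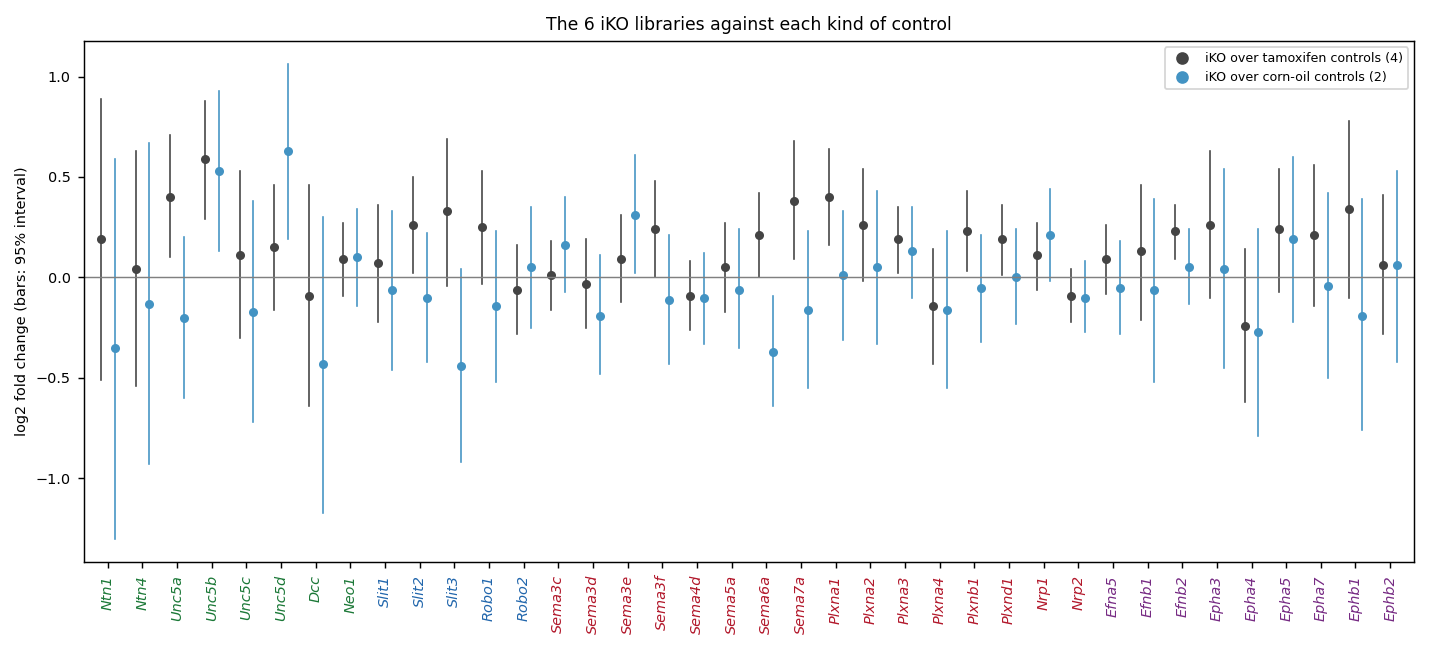
Log2 fold changes of the 38 tested guidance genes with 95% intervals, iKO over the 4 tamoxifen-injected controls (black) beside iKO over the 2 corn-oil controls (blue). The black points lie mostly above 0 with a median of 0.17 and the blue points scatter around -0.06, and Unc5b is high in both.

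The count against tamoxifen-injected controls depended on iKO 1. Without that library 9 of 38 guidance genes passed, all higher in iKO than in the tamoxifen-injected controls, when 8.87% of all genes did (1459 of 16454). They were the netrin receptor genes Unc5a at 0.46 and Unc5b at 0.67, the slit receptor gene Robo1 at 0.34, the semaphorins Sema3f at 0.31 and Sema7a at 0.46, the plexins Plxna1 at 0.46 and Plxna2 at 0.37, and Efnb2 at 0.25 and Epha5 at 0.34 in the ephrin system. Without iKO 1 the counts were 1 of 38 against all 6 controls, Unc5b, when 2.21% of all genes passed, and 0 of 38 against the corn-oil controls, when 0.972% did. Against the corn-oil controls the 9 genes did not share a direction. Unc5a had a log2 fold change of -0.18, Robo1 -0.11, Sema3f -0.08 and Sema7a -0.13. The others were positive, Plxna1 at 0.04, Efnb2 at 0.06, Plxna2 at 0.09, Epha5 at 0.23 and Unc5b at 0.56. With all libraries, the count against tamoxifen-injected controls was 3 of 38 in DESeq2 (Unc5b, Plxna1 and Efnb2), against 4.10% of all genes, and 4 of 40 with no filter on low counts (Unc5b, Sema7a, Plxna1 and Plxna2), against 2.58%.

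The corn-oil controls were themselves compared with the tamoxifen-injected controls, which differ from them in agent and genotype together, so these cannot be told apart. With edgeR 0 of 38 guidance genes and 0 of 16384 genes passed (0%), although 9 guidance genes and 11.6% of all genes had an unadjusted p under 0.05, and DESeq2 called 0 of the 12 guidance genes it gave an adjusted p and 44 genes in all (0.889% of those adjusted). With no filter on low counts 4 guidance genes passed, Ntn1, Sema6a, Sema7a and Plxna1, against 1.23% of all genes. These 4 were also tested with the filter, where their adjusted p ran from 0.393 to 0.627. Ntn1 had 17.4 and 34.5 CPM in the corn-oil controls, so its rise rests on control 6. The log2 fold change, corn oil over tamoxifen, was positive for 32 of 38 with a median of 0.17, against 51.2% positive and a median of 0.01 over all genes. Sema6a, a transmembrane semaphorin, had the smallest p. It had 18.4 and 13.8 CPM in the corn-oil controls, against 10.9, 11.5, 10.9 and 11.2 CPM in the tamoxifen-injected controls, so the pair lay above all 4. Its log2 fold change was 0.57 ± 0.14 (adjusted p = 0.393). Unc5b differed little between the kinds of control, at 0.06 ± 0.20.

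No guidance gene passed the test between the sexes. Between male and female libraries 0 of 38 passed, against 0.0549% of all genes (9 genes), and 2 had an unadjusted p under 0.05, where 4.11% of all genes did. Epha5 had the smallest p, at a log2 fold change of 0.31 ± 0.12, male over female (adjusted p = 0.904). The iKO effect did not differ past the test between males and females for any of the 38 or for any of 16384 genes (0%), with 0 guidance genes and 3.59% of all genes at an unadjusted p under 0.05 in edgeR and 2 genes in all called by DESeq2 (0.0122%). With no filter on low counts 1 guidance gene passed, Ntn1 at -0.92, against 0.752% of all genes. With the filter Ntn1 had the same estimate, -0.92 ± 0.54, and did not pass (adjusted p = 0.945). The female library iKO 1 had 52.4 CPM of Ntn1, against 15.1 to 22.4 CPM in the other iKO libraries. With the filter Unc5a had the smallest p for the difference of the iKO effect between the sexes, -0.55 ± 0.30 on the log2 scale (adjusted p = 0.945). Only 2 of the 6 controls were female, which limits this comparison. Both received tamoxifen and both corn-oil controls were male, so sex and the kind of control are partly mixed in both sex comparisons. Unc5a had 13.4 and 9.56 CPM in the male corn-oil controls, against 7.05 to 8.27 CPM in the tamoxifen-injected controls of both sexes.

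Single libraries stood out in several of these genes. The library iKO 1 was the lowest of 12 in 11 of the 38 tested genes, a share of 28.9% against 24.4% over all genes, and the highest in 6, a share of 15.8% against 24.6%. The 11 were Unc5c, Neo1, Slit1, Robo1, Robo2, Sema3e, Sema5a, Plxna2, Plxna4, Epha5 and Epha7, all of them receptors apart from Slit1, Sema3e and Sema5a. The 6 were Ntn1, Ntn4, Plxnd1, Efnb1, Epha3 and Ephb2. In the same library the sensory neuron marker sum was the lowest of all 12 and the sums of the 6 other cell types named with Ntn1 and Ntn4 the highest, and the part of those cells in these values was not tested.

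**Figure D5:**
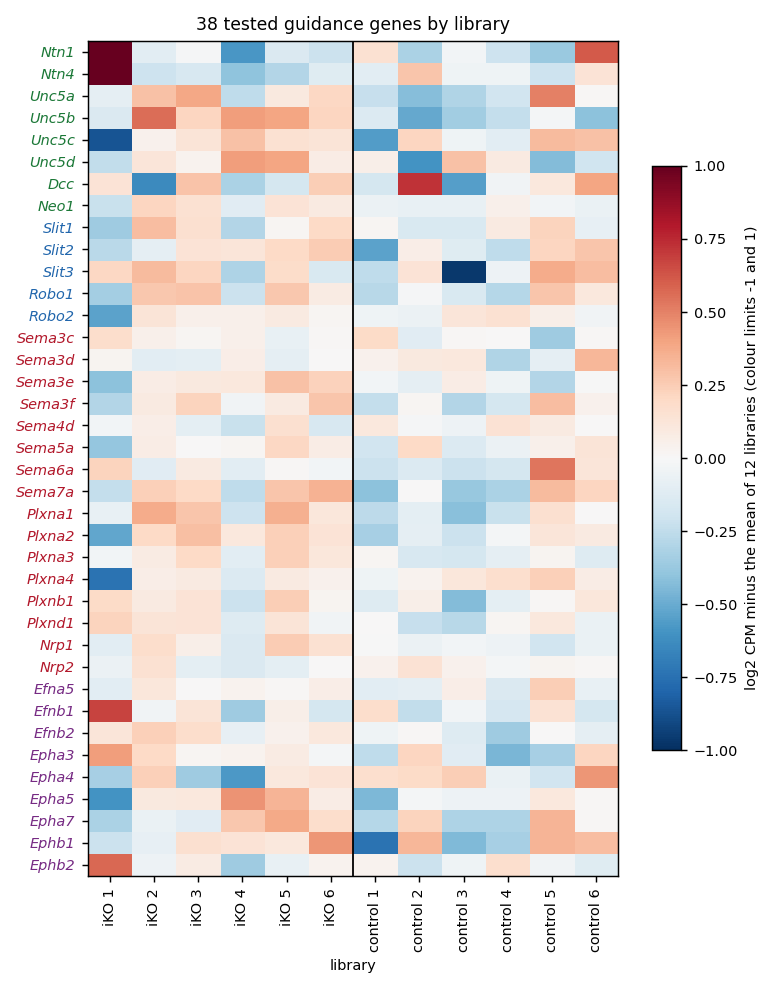
Heat map of the 38 tested guidance genes (rows, by system) in the 12 libraries (columns, iKO left of control), coloured by log2 CPM minus the gene's mean over all libraries. The iKO 1 column has the darkest cells, red for Ntn1 and Ntn4 and blue for Unc5c, Robo2, Plxna2 and Plxna4, and the Unc5b row is redder in the other 5 iKO libraries than in the controls.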

How the data were processed

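Poly(A) RNA of 12 mouse dorsal root ganglion libraries was read as deposited counts, whole reads per gene with no normalization by the authors. Per the submitters' processing notes, reads were handled with featureCounts 2.0.1, STAR 2.7.8a and bcl2fastq 2.20.0.422 on GRCm39. The counting options and annotation release were not given in the sources used here. Gene names and exon lengths came from GENCODE M21, on an older build, by gene identifier, which named 52083 of 55416 identifiers, and no coordinates are given. The kit does not record strand, so reads of overlapping genes on opposite strands cannot be told apart.

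Counts were TMM-scaled, filtered with filterByExpr by group (16384 genes kept), and tested with edgeR 4.0.16 in R 4.3.3 by the quasi-likelihood test, robust, 2-sided, with a sex term (9 residual degrees of freedom). Adjustment ran over all genes tested, by Benjamini-Hochberg, with a threshold of 0.05. The standard error is the log2 fold change over the root of F. The biological coefficient of variation was 12.8%. Counting error adds to it most for genes with few reads, among them Dcc, Epha3 and Ephb1 of those tested. CPM is the count over the scaled library size. The 2 kinds of control were separated by a factor with 3 levels, and the sexes by the sex term and its interaction with group. The procedure was tested on simulated data. Labels do not say whether a library holds 1 animal, so the spread behind each p-value is that between these samples.

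The guidance genes and lists were chosen with earlier results of these data known. Library values are given for genes that passed the test, for the smallest p of each system and role, and for the highest level per length of each system; of the wider lists, for genes that passed, and otherwise the smallest p is named. Of 183 listed names 182 matched. Alternatives were other size factors, no filter, DESeq2 1.42.0, no sex term, a replicate block, a term for sample number runs, subsets of controls, and each library left out.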

Additional observations from a re-analysis of the deposited data

Results flagged for a closer look

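In 84 groups of 6 libraries, 11 held a library far from the other 5 (a gap over 0.625 of the group's range, Dixon's test, which chance passes in about 1 of 20 groups). Of the 11, 8 were in iKO 1. That library was high for Ntn1 at 52.4 CPM (the other 5 iKO libraries at 15.1 to 22.4) and for Ntn4 at 34.1 CPM (11.6 to 14.1). It was low for Unc5c at 14.5 CPM (27.1 to 32.4), Robo2 at 190 CPM (278 to 301), Sema3e at 25.8 CPM (36.1 to 42.1), Plxna2 at 127 CPM (196 to 225), Plxna4 at 80.5 CPM (122 to 143) and the targeted gene Prdm12 at 18.6 CPM (22.9 to 25.4). Among controls, Nrp1 was low in control 5 at 85.9 CPM (93.6 to 97.8), Nrp2 was high in control 2 at 89.6 CPM (80.2 to 83.6), and Epha5 was low in control 1 at 16.0 CPM (21.0 to 23.5).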

How the results depend on the processing

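Of 507 recomputed values, 434 were classed as the same. For a fold change this means the same direction and side of the threshold, and for a count of genes called an equal or similar number. The 1 guidance gene called for iKO against control became 0 with a replicate block, within replicates 1 to 4 and within replicates 5 and 6, and 0 to 1 with each library left out. The 155 genes called in all became 253 with no filter on low counts, 294 in DESeq2, 79 with the block, 35 within replicates 1 to 4, 82 within replicates 5 and 6, 235 without the corn-oil controls, and 92 to 364 with each library left out. Under the block Unc5b had 0.55 (adjusted p = 0.216) and Ngef -0.72 (adjusted p = 0.0528). The wider guidance list, with 1 gene called, had 0 with the block and within either range of replicates, and 1 to 3 with each library left out. Prdm12 within replicates 5 and 6 had -2.13 (adjusted p = 0.622). Against tamoxifen-injected controls, 0 guidance genes became 4 with no filter, 3 in DESeq2, and 0 to 9 with each library left out. With no filter 4 passed between the kinds of control and 1 between the sexes' iKO effects.

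The direction turned for genes near 0. Within replicates 5 and 6 Ntn1 had -0.39, Slit2 -0.02, Robo1 -0.01 and Efnb1 -0.04. Slit1 had -0.04 with the block, and Ntn1 0.00 with a term for runs of sample numbers. With each library left out Ntn1 ran from -0.22 to 0.21, Slit1 from -0.02 to 0.11 and Efnb1 from -0.03 to 0.15. The cause was not tested. Smaller subsets hold fewer samples.

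The labels do not say that replicate numbers pair libraries, and they were not taken to do so. Deviations of same-numbered libraries correlated at over 0.1 in 3 of 6 pairs. Among the 6 libraries of the other group, 6 of 12 libraries correlated best with their own number. That is more than random matching would give. Depth limits Robo3 and Sema3a, with at most 14 and 17 counts in a library.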
